A study of Arabidopsis thaliana with 3 samples.

Results

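The members were the nuclear microRNA genes of Arabidopsis thaliana, set against sites recovered by chromatin immunoprecipitation and sequencing (ChIP-seq) of JMJ28, a JmjC-type enzyme of the group that demethylates histone H3 at lysine 9. They were taken from a RefSeq gene table by a symbol of MIR plus a number, and overlapping entries were counted as 1 locus. The 326 entries gave 319 loci among 37899 nuclear genes, since 7 loci held a pair of overlapping entries. Families numbered MIR156 to MIR172, MIR319 and MIR390 to MIR399 were called conserved and held 96 loci, and the other families held 223. A locus was said to have a summit when a peak summit lay inside it or within 1000 bp of it.

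The chromatin came from 14-day-old Col-0 seedlings that carry JMJ28 with a 3xFLAG tag under the JMJ28 promoter (JMJ28pro::JMJ28:3xFLAG), grown in long days at 22 °C. The labels give 2 ChIP libraries from biological replicates and 1 input library, all of this genotype, and they state neither a jmj28 mutant background nor a number of transgenic lines. The data were 1 list of 18410 summits, 18368 of them on the nuclear chromosomes, so no value per library, no spread between replicates and no depth is given below. Untagged plants were not analysed here, so unspecific recovery of chromatin and JMJ28 sites cannot be told apart. The score is the authors' −log10 value for each summit, and it ranks the evidence for summits within this list without measuring occupancy (nuclear median 9.07).

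MicroRNA genes are transcribed by RNA polymerase II into longer primary transcripts that fold into a hairpin. DCL1 cuts the hairpin, and AGO1 then uses the mature microRNA to cut or repress matching messenger RNAs. In plants the old families mostly control transcription factors, hormone signalling and nutrient uptake, and many younger families are known from a few related species. The MIR entries of the table are short (median 147 bp, range 59 to 689 bp), and where the primary transcript starts was not analysed here. The table gives no strand, so the lower and the higher side of a locus could not be told as upstream or downstream.

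Most microRNA loci had no summit, and where one lay within 1000 bp it was usually nearer to another gene than to the microRNA. Of the 319 loci, 93 (29.2%, exact 95% interval 24.2 to 34.5) had a summit, against 55.0% of all nuclear genes and 65.4% of protein-coding genes. Short protein-coding genes of the same length range came close to the microRNA loci, with 31.1%. Among other RNA genes the share was 73.9% for snoRNA genes, 56.1% for snRNA genes, 55.4% for tRNA genes and 39.8% for lncRNA genes. The difference between these classes was not tested, and intervals cover counting error only.

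A summit inside the microRNA locus itself was found at 3 loci (0.940%, interval 0.194 to 2.72), against 36.9% of all nuclear genes and 47.7% of protein-coding genes. Per length of sequence, microRNA loci held 5.26 summits per 100 kb (exact Poisson 95% interval 1.08 to 15.4), and protein-coding genes held 25.3. Short protein-coding genes of the length range of the microRNA loci (59 to 689 bp) had one inside in 9.25% of cases. Lengths within that range were not matched to the microRNA loci, whose median is 147 bp, and the part of length in these shares was not tested.

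The 3 loci with a summit inside were MIR158a, MIR173 and MIR168a. MIR158a, from a family known from few relatives of Arabidopsis although its number falls in the conserved range, had its summit on chromosome 3 at position 3366413 (TAIR10), scoring 178. That score was equal to or above 99.6% of nuclear summits and was the highest near any microRNA locus. The nearest other gene, AT3G10750, lay 514 bp from the summit. MIR173, whose product starts the production of trans-acting small RNAs from TAS1 and TAS2 transcripts, had its summit on chromosome 3 at position 8236183, scoring 14.6, and the nearest other gene was 1595 bp away. MIR168a, whose product represses AGO1, had its summit on chromosome 4 at position 10578678, scoring 5.34. The scores of MIR173 and MIR158a were above the nuclear median and that of MIR168a was below it.

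Conserved families had a summit at 25 of 96 loci (26.0%, interval 17.6 to 36.0) and the other families at 68 of 223 (30.5%, interval 24.5 to 37.0). The difference of -4.45 percentage points had a 95% interval (Newcombe) of -14.4 to 6.68. Its sign turned with flanks of 2000 bp (0.86 points) and with summits inside the locus only (1.63 points). It also turned when a summit was given to its nearest gene alone (7.87 points) and when each family counted once (20.6 points). Neither of these last settings is neutral between the classes. A locus wholly inside another gene, more often one of the other families, cannot be nearest to a summit, and conserved families hold more loci each. Since the interval holds both signs and the sign also turned with the flank, no direction can be given for the plain count. Both classes lay below the 55.0% of all nuclear genes.

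**Figure D1:**
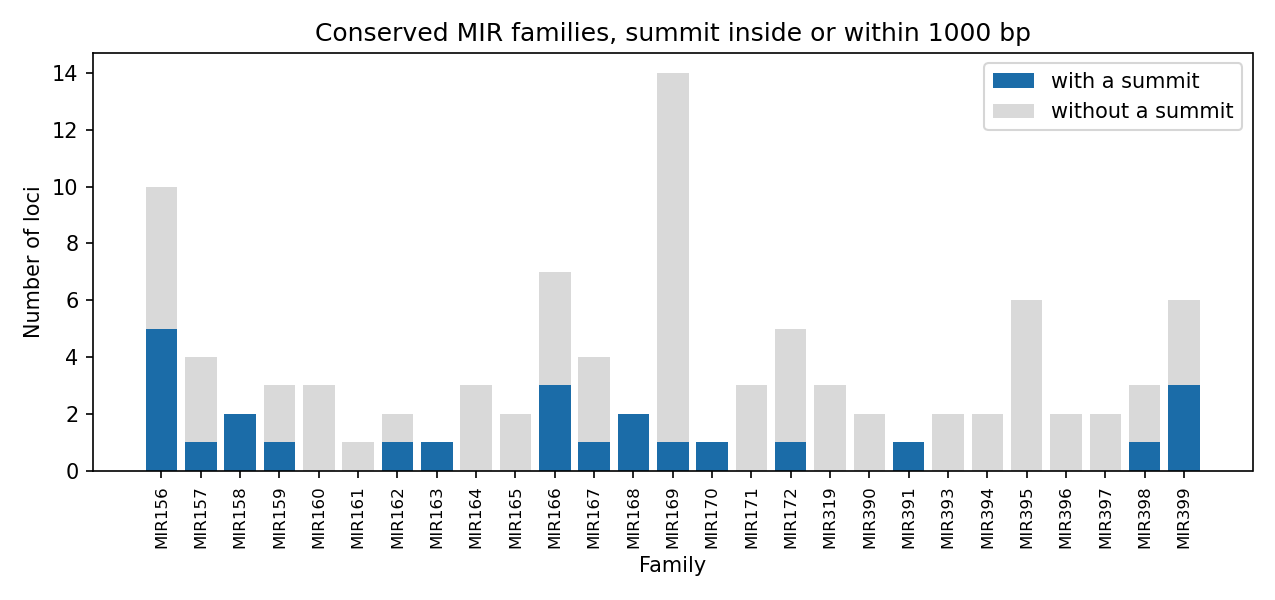
Number of loci in each conserved MIR family (y axis), split into loci with a summit inside or within 1000 bp (blue) and loci without one (grey). MIR156 has a summit at 5 of 10 loci and MIR169 at 1 of 14, while 12 of 27 families have none.

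Of the 27 conserved families, 5 had a summit at every locus, 10 at some loci and 12 at none. Families with a summit at every locus were small: MIR158 and MIR168 with 2 loci each, and MIR163, MIR170 and MIR391 with 1 each. The 12 families without a summit held 31 loci and were MIR160, MIR161, MIR164, MIR165, MIR171, MIR319, MIR390, MIR393, MIR394, MIR395, MIR396 and MIR397. Copies of 1 family can be nearly identical and share reads, so a missing summit in such a copy is uncertain. The groups of families described below hold few loci each. Their counts stand beside 29.2% of all microRNA loci and 55.0% of all nuclear genes, and no difference from these shares was tested.

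The MIR156 and MIR157 families, which hold plants in the juvenile phase by repressing SPL transcription factors, had a summit at 6 of 14 loci. MIR157d had the highest score of these (29.6, chromosome 1, position 18025991), but its summit lay inside the neighbouring gene AT1G48740, 820 bp from the microRNA. MIR156j lies inside SPL9, itself a target of the family, and its summit (score 16.1) was 896 bp away and nearer to OEP16-3. The summit of MIR156d (7.64) was 803 bp away inside AT5G10946, the protein-coding gene in which MIR156d lies. That of MIR156b (6.07) was 400 bp away, inside AT4G30970 and the ncRNA gene AT4G30975, which overlaps MIR156b. At 2 MIR156 loci the microRNA was the gene nearest to its summit, MIR156h (score 8.48, 74 bp away) and MIR156c (score 5.10, 516 bp away). MIR156a, from which the nearest summit was 15890 bp away, and MIR156e, MIR156f, MIR156g and MIR156i had none.

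MIR172, which acts after MIR156 in the ageing pathway and represses AP2-type floral repressors, had a summit at 1 of 5 loci. MIR172e had it at position 23988683 of chromosome 5, 87 bp from the locus and 1072 bp from the nearest other gene, with a score of 5.82. This was equal to or above 31.6% of nuclear summits. At MIR172a, MIR172b, MIR172c and MIR172d the nearest summit was 5780 to 9011 bp away.

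The families that act back on the microRNA pathway had a summit at 3 of 4 loci. MIR162a, whose product represses DCL1, had summits of 17.2 (197 bp away) and 3.38 (827 bp away), the latter inside NF-YB12. MIR168b had 1 of 6.58 at 41 bp, and MIR168a had a second of 2.46 at 875 bp, inside the lncRNA gene AT4G06880. MIR162b had none, with the nearest summit 2006 bp away.

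Families that tune auxin signalling had a summit at 1 of 11 loci, a small count that was not tested against the 29.2% of all microRNA loci. MIR160 and MIR167 repress auxin response factors, MIR390 starts small RNAs from TAS3 that do the same, and MIR393 represses auxin receptors. Only MIR167c among them had a summit (score 12.6), inside AT3G04760 and 885 bp from the locus. At the other 10 loci of these families the nearest summit was 1600 bp (MIR167b) to 4711 bp (MIR167a) away.

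MIR164 represses CUC boundary genes, MIR394 represses the F-box gene LCR and MIR396 represses growth-regulating factors, and these 3 families had a summit at 0 of 7 loci. Both MIR396 loci lay in gene-poor windows, with the nearest summit 81964 bp (MIR396a) and 27636 bp (MIR396b) away. MIR165 and MIR166, which restrict HD-ZIP III factors to the upper side of leaves, had 1 at 3 of 9 loci. MIR166a had a score of 6.07 at 103 bp, in a region where the nearest protein-coding gene was 4428 bp away. The summits of MIR166c (5.10) and MIR166f (3.19) belonged to RUG1 and UAH. MIR159 and MIR319, which repress GAMYB-type and TCP factors, had a summit at 1 of 6 loci, MIR159b (score 3.58 at 87 bp). MIR170 had a score of 50.9 at 99 bp, but AT5G66050 lay 25 bp from that summit, and none of the 3 MIR171 loci had one. Both families repress GRAS factors of the meristem.

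The nutrient families ranged from no summit (MIR395, MIR397) to 3 of 6 loci (MIR399). MIR399, which is induced by phosphate shortage and represses PHO2, had a summit at 3 of 6 loci. MIR399c scored 18.0 at 479 bp and was the gene nearest to its summit, whereas the summits of MIR399f (16.5) and MIR399b (12.9) were nearer to AT2G34210 and NRS/ER. MIR395, which responds to sulphate shortage, had a summit at 0 of 6 loci, all of them in a pair of tandem groups. Of the copper families, MIR398 had 1 at 1 of 3 loci (MIR398c, score 15.4, inside AT5G14550 and AT5G14560) and MIR397 at 0 of 2. MIR169, which represses NF-YA factors, had a summit at 1 of 14 loci, MIR169h, where a summit of 53.2 lay inside AT1G19370 at 618 bp. The 6 tandem loci MIR169i to MIR169n had none, with the nearest summit 1869 to 8449 bp away.

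The 4 families of the conserved range that are known from few plant lineages (MIR158, MIR161, MIR163 and MIR391) had a summit at 4 of 5 loci. MIR158b had a score of 67.0 at position 20772163 of chromosome 1, 55 bp from the locus and 283 bp from AT1G55590. Both MIR158 loci were thus the genes nearest to their summits, with scores equal to or above at least 96.4% of nuclear summits. MIR163 (7.64, inside LIG6) and MIR391 (3.58, inside AT5G60400) had theirs in a neighbour. Without these families the conserved share was 23.1%.

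Among the other families the 10 highest scores mostly belonged to neighbours or to genes in which the locus lies. MIR853 led with 82.4, from a summit 526 bp away inside AT3G23325, the protein-coding gene in which it lies. MIR5997 followed with 63.9 at position 10706728 of chromosome 3, only 37 bp from the locus and 368 bp from AT3G28560. A summit of 48.1 inside AT1G60070 was shared by MIR859, MIR774a and MIR774b. MIR5652 (42.1, inside AT1G63130), MIR8169 (34.4, inside CHR40), MIR835 (33.4, inside AT1G76065), MIR833a and MIR833b (25.5, 1 joined locus) and MIR5661 (23.7, nearer to AT4G19080) completed the list. MIR5652, MIR835 and MIR5661 themselves lie inside the gene named beside them. Of these 10 loci, MIR5997 alone was the gene nearest to its summit.

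MIR865 and MIR5636 had a summit that lay inside a well-known gene. MIR865 had a summit of 12.2 at position 5170593 of chromosome 5, 462 bp away. That summit lay inside CO, the photoperiodic activator of flowering, and also inside the protein-coding gene AT5G15843. MIR5636 overlaps TAS1B, and a summit inside TAS1B (11.2) was 41 bp from it. MIR827, which represses a regulator of phosphate transport, had summits of 13.2 at 129 bp and 3.58 at 513 bp, and was the gene nearest to both. MIR408, a copper-responsive microRNA, had a summit of 19.2 at 749 bp, inside AT2G47010. The loci in this paragraph were chosen after their values were seen.

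Of the 186 other families, counted with joined loci under their lowest number, 61 had a summit at every locus, 4 at some and 121 at none. Most of these families are single loci, and 60 of 165 such loci had a summit. Of the 21 families with 2 or more loci, 16 had none. The exception with all loci was MIR774, through its shared summit. All 5 MIR854 loci lay far from any summit, the nearest at 55477 bp. Gene-poor windows of 500 kb held 32 of the other loci and 2 of the conserved ones, and 2 of these 34 loci had a summit. Whether reads could be placed uniquely there was not examined.

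Most summits near microRNA loci were owned by neighbouring or overlapping genes, meaning that another gene of any type lay nearer to the summit. Ownership was not counted for other classes of genes, so no ownership share given here is shown to be particular to microRNA genes. Within 1000 bp of microRNA loci lay 100 distinct summits, of which 57 fell inside a protein-coding gene, 7 inside another kind of gene only and 36 outside every gene other than the microRNA. They formed 104 pairs of a summit and a locus, and in 84 of these another gene was nearer to the summit than the microRNA. At 74 of the 93 loci with a summit (79.6%, interval 69.9 to 87.2), every summit was nearer to another gene. This held for 14 of 25 conserved loci (56.0%, interval 34.9 to 75.6) and for 60 of 68 other loci (88.2%, interval 78.1 to 94.8). A locus wholly inside another gene can never be nearer to a summit than that gene, so its outcome was fixed in advance. Of the loci with a summit, 2 conserved and 25 other loci lie wholly inside a protein-coding gene. Among all loci with a summit that overlap no protein-coding gene, the share was 68.9% (42 of 61). Some of these still overlap a non-coding gene, such as MIR5636 and TAS1B, and a locus wholly inside such a gene has its outcome fixed too.

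Counted over all loci, 11 of 96 conserved loci (11.5%, interval 5.86 to 19.6) and 8 of 223 other loci (3.59%, interval 1.56 to 6.95) were the gene nearest to a summit. The conserved loci were MIR156c, MIR156h, MIR158a, MIR158b, MIR159b, MIR162a, MIR166a, MIR168a, MIR168b, MIR172e and MIR399c. The other loci were MIR173, MIR827, MIR830, MIR861, MIR864, MIR866, MIR5662 and MIR5997. Overlap with protein-coding genes, at 7.29% of conserved and 35.0% of other loci, enters this split through the way ownership was counted. Among loci that overlap none, the shares were 11 of 89 (12.4%, interval 6.33 to 21.0) and 8 of 145 (5.52%, interval 2.41 to 10.6), whose intervals overlap. With MIR158, MIR161, MIR163 and MIR391 counted among the other families they were 9 of 91 (9.89%) and 10 of 228 (4.39%). The difference was not tested, since loci of 1 family and tandem loci are not independent.

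**Figure D2:**
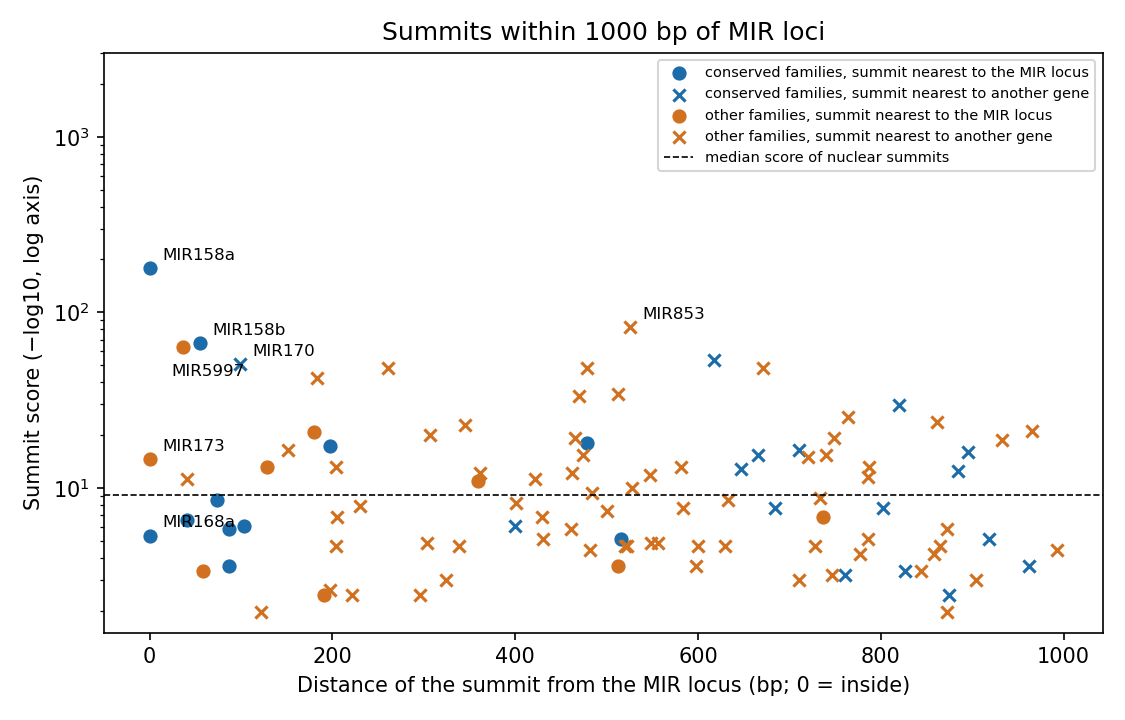
Each symbol is a summit paired with a MIR locus within 1000 bp, placed by its distance from the locus in bp (x axis) and its score on a log axis (y axis). Circles mark the 20 pairs in which the MIR locus was the nearest gene, with a median distance of 95 bp, and crosses the 84 in which another gene was nearer, with a median of 583 bp.

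Summits nearest to a microRNA locus were close to it, at a median of 95 bp, while summits owned by another gene lay at a median of 583 bp. Ownership itself uses these distances, so this is a description. Their scores were alike in the middle, with a median of 7.66 for the 20 pairs owned by the microRNA and 7.78 for the 84 owned by another gene. The 100 distinct summits scored 7.78 at the median (interquartile range 4.64 to 15.5), beside 9.07 for all nuclear summits (5.10 to 18.4). At or above that nuclear median were 45 of the 100, and 47 loci (14.7%) had such a summit, against 36.2% of all nuclear genes.

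The nearness of a protein-coding gene moved with the share of loci that had a summit. It was 47.9% (35 of 73) where the nearest protein-coding gene was 1 to 500 bp away, 32.5% (13 of 40) at 501 to 1000 bp and 21.2% (11 of 52) at 1001 to 2000 bp. Beyond 2000 bp it was 2.90% (2 of 69), and these 2 loci were MIR166a and MIR156c. In that bin a summit of the locus must lie over 1000 bp from every protein-coding gene, so the trend is partly built into the counting. Some loci of that bin, such as the MIR854 loci, also lay in gene-poor windows, where unique placement of reads was not examined. Loci that overlap a protein-coding gene had a summit in 37.6% of cases (32 of 85). Conserved and other loci ran side by side in these bins, with overlapping intervals in each.

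**Figure D3:**
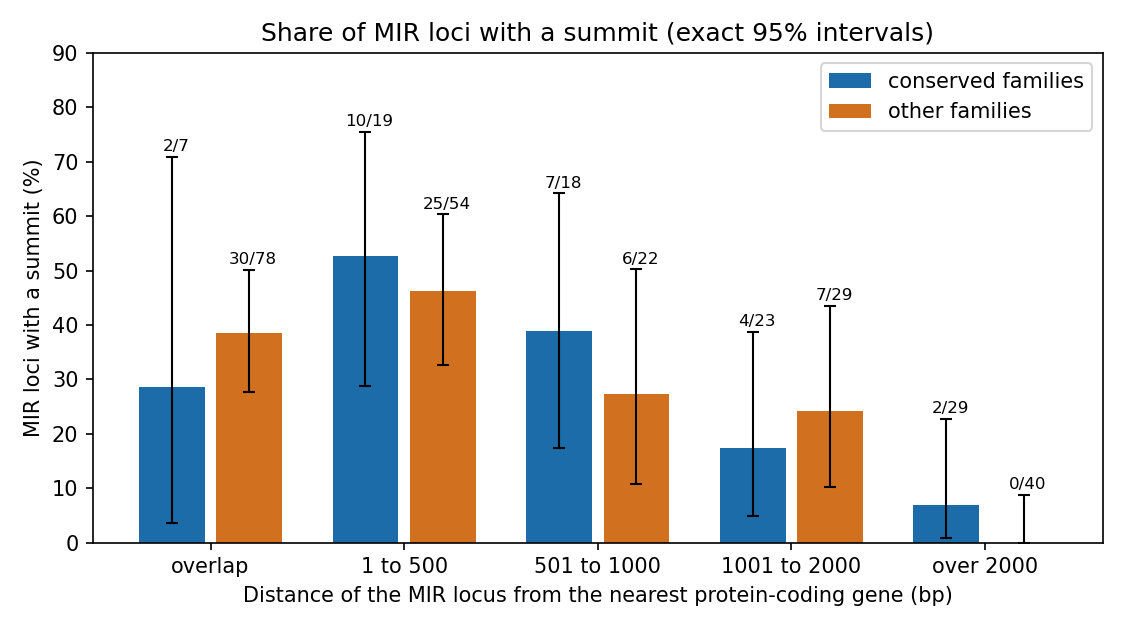
Share of MIR loci with a summit inside or within 1000 bp (y axis, percent) by the distance in bp from the nearest protein-coding gene (x axis), for conserved (blue) and other (orange) families. Bars are shares, lines are exact 95% binomial intervals, and the numbers give loci with a summit over all loci. The shares are highest at 1 to 500 bp and lowest beyond 2000 bp, at 2 of 29 and 0 of 40.

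Conserved loci stood farther from protein-coding genes, at a median of 1228 bp (interquartile range 465 to 2202 bp), than other loci, at a median of 310 bp (0 to 1424 bp). For the 0 of 40 of the other families beyond 2000 bp, the exact 95% interval reached up to 8.81%. That interval takes loci as independent, and the 40 include the 5 MIR854 loci. Of the 71 conserved loci without a summit, 39 (54.9%) had a nearest protein-coding gene that did have one, as did 56 of 155 other loci (36.1%). Of the 93 loci with a summit, 84 (90.3%) had such a neighbour. The same summit can count for a locus and for its neighbour, so this high share is partly built into the counting. Over all 319 loci the share with such a neighbour was 56.1%, and 65.4% of all protein-coding genes had a summit.

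Outside the gene, summits per bin were highest within 500 bp for protein-coding genes, but not for either class of microRNA loci. Within 500 bp outside the gene, protein-coding genes had 11.8 summits per 100 genes at 1 to 250 bp and 12.7 at 251 to 500 bp, then 9.64 and 8.01 at 501 to 750 and 751 to 1000 bp. Conserved loci had 8.33, 2.08, 6.25 and 9.38 per 100 loci in the same bins, from 8, 2, 6 and 9 summits. Other loci had 6.73, 9.42, 11.2 and 6.73, from 15, 21, 25 and 15 summits. The density at 1 to 1000 bp was 26.0 summits per 100 loci and kb for conserved loci and 34.1 for other loci. For protein-coding genes it was 42.1. At 1001 to 2000 bp these densities were 26.0, 19.3 and 32.4, and from 2001 to 5000 bp they were 36.1, 27.1 and 37.1. Within 1000 bp, other loci and protein-coding genes thus had more summits per kb than farther out, and conserved loci did not. The bins of microRNA loci hold few summits and no order among them was tested.

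**Figure D4:**
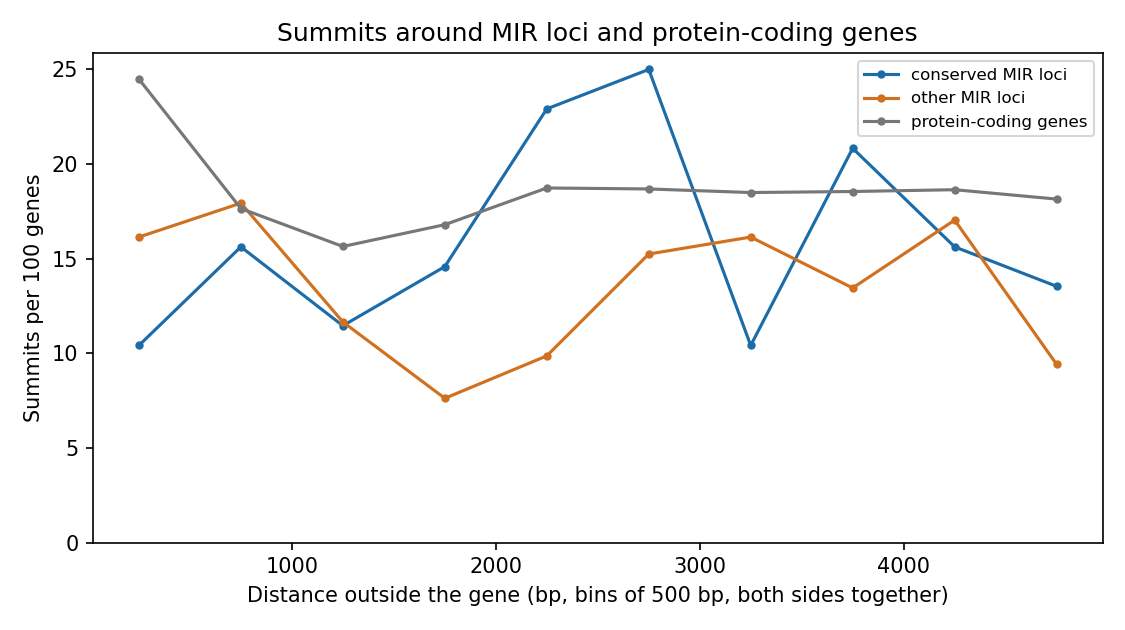
Summits per 100 genes (y axis) in bins of 500 bp by distance outside the gene (x axis, bp, both sides together) for conserved MIR loci (blue), other MIR loci (orange) and protein-coding genes (grey). The grey line is highest next to the gene, and neither line of MIR loci is.

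At the limit of 1000 bp, the loci just inside were MIR844 (summit at 993 bp, score 4.42), MIR391 (962 bp, 3.58) and MIR166c (918 bp, 5.10). Just outside were MIR8167f (1013 bp, 41.6), MIR780 (1029 bp, 12.9) and MIR159c (1047 bp, 6.58). Of the 319 loci, 66 stood in 26 tandem groups of loci under 10 kb apart, and 18 of these groups had no summit. The 13 tandem loci with a summit included MIR400 and MIR5654, which shared a summit inside AT1G32580 (5.10), and MIR5022 and MIR4227, which shared 1 inside HAP13 (4.64).

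In a chosen list of protein-coding genes that make and use microRNAs, 21 of 22 carried a summit (95.5%, interval 77.2 to 99.9). The share was 65.4% for all protein-coding genes. The list was chosen with earlier results of these data known, so its share describes the listed genes only. HYL1, the double-stranded RNA-binding partner of DCL1, had the highest score (94.7), followed by TGH (61.5), a factor that binds the primary transcripts. DCL1 itself had 48.6, the splicing-related gene CDC5 44.8, the uridylyltransferase gene URT1 38.4 and DDL 28.7. The scored summits of HYL1, DCL1 and CDC5 lay outside the gene, although each had another inside. PRL1 was the member without a summit. These genes are long (median 4033 bp, against 2078 bp for protein-coding genes), and the part of length in this share was not tested.

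In a chosen, incomplete list of known targets of the conserved families, AGO1 again among them, 39 of 46 carried a summit. That share was 84.8% (interval 71.1 to 93.7), also beside 65.4%. The list was chosen with earlier results of these data known, so its share is a description of the listed genes only. The highest scores were at the growth factor gene GRF3 (165), TCP2 (152), the auxin receptor gene TIR1 (91.2), the floral repressor gene SMZ (78.5), the HD-ZIP III gene REV (70.1) and ARF6 (54.3). The scored summits of TIR1 and SMZ lay outside the gene. CUC2, NAC1, ATHB-15, LCR, SULTR2;1, LAC4 and LAC17 had none. Within a pathway, targets and microRNAs matched in some cases and not in others. TIR1, AFB2 and AFB3 had a summit and neither MIR393 locus did, and the same held for GRF1, GRF2 and GRF3 beside MIR396 and for the 3 listed TCP targets beside MIR319. It also held for ARF10, ARF16 and ARF17 beside MIR160 and for HAM1, HAM2 and HAM3 beside MIR171. Beside MIR395 and MIR164, neither with a summit, only some listed targets had one, among them APS1, APS4 and CUC1. For MIR159, MIR167, MIR169, MIR172 and MIR398 every listed target had a summit, as did 1 locus of each family. MIR166 had 3 of 7 loci, and ATHB-15 alone of its listed targets had none. AGO1 and both MIR168 loci had one, as did PHO2 beside 3 of 6 MIR399 loci and SPL3, SPL9 and SPL15 beside 5 of 10 MIR156 loci. Of these MIR399 and MIR156 loci, only MIR399c, MIR156c and MIR156h were the gene nearest to their summit. MIR156j lies inside SPL9, so its summit, 896 bp away, counted for both. LCR and both MIR394 loci had none, nor had LAC4, LAC17 and both MIR397 loci. These pairings of targets and microRNAs were set out after their values were seen, and most listed targets had a summit. Target genes had a median length of 2814 bp, and their share was not tested against that of the microRNA loci. Of the 6 TAS loci, looked at after the values were seen, TAS1A, TAS1B, TAS1C and TAS2 had a summit and TAS3 and TAS3b had none.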

How the data were processed

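Per the submitters' processing notes, the authors used Bowtie2 and MACS2 on TAIR10. Versions, peak threshold, pooling of the libraries and how the input entered are not stated there. The deposited list holds 1 bp summits with a −log10 score (of a q-value or p-value, laid out like MACS2 summits). Depth per sample is unknown.

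Gene extents and names came from a RefSeq table of TAIR10.1, which has no strand. To check the shared coordinates, summits up to 300 bp from an end of a protein-coding gene were counted: 53.2% without a shift and 22.1% to 37.5% after shifts of 500 to 2000 bp either way. Only summit positions are printed. A summit was owned by the gene of any type nearest to it. Gene-poor windows of 500 kb had under 50% of their chromosome's median number of protein-coding genes. No sequences were used here.

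The members and lists were chosen with earlier results of these data known. Named loci were those with a summit inside, the top score of each conserved family, the 10 top scores of the other families, families with all or no loci having a summit, and loci beside the limit. With 1 list no test between samples was possible, so shares carry exact 95% binomial intervals. Counting was checked on simulated summits. Software was pandas 2.3.3, SciPy 1.17.1, numpy 2.4.6 and matplotlib 3.10.9 under Python 3.11.15.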

Additional observations from a re-analysis of the deposited data

How the results depend on the processing

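The share of loci with a summit followed the flank. At 500 bp it was 15.4% of all loci, 12.5% of conserved and 16.6% of other loci, and 65.3% of loci with a summit had every summit nearer to another gene. At 2000 bp the shares were 41.1%, 41.7% and 40.8%, and the difference of conserved minus other turned to 0.86 points. With scores at or above the nuclear median they were 14.7%, 12.5% and 15.7%. With summits inside the locus only they were 0.940%, 2.08% and 0.448%, a difference of 1.63 points. With each summit for its nearest gene only they were 5.96%, 11.5% and 3.59%, a difference of 7.87 points. With each family counted once, 55.6% of conserved and 34.9% of other families had a summit, a difference of 20.6 points; conserved families hold more loci each. Among loci overlapping no protein-coding gene, 68.9% of those with a summit had it nearer to another gene. The other alternatives, among them leaving out gene-poor windows (chosen after seeing the data) and counting every table entry, kept the sign of the difference and stayed within the main intervals, as did some values of the settings above (24 of 46 values in all). Of 27 named loci, 15 kept their score at 500 bp and 3 inside the locus, and the others had no summit there. No paired analysis was possible because the list holds no value per library. Depth, replicate spread and unique placement of reads at duplicated loci were not analysed here.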
